A study of Rattus norvegicus with 23 samples.

Results

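STING, the product of Tmem173, is the adaptor through which cytosolic DNA is turned into a type I interferon response, and it was followed here with 6 other genes of cytosolic nucleic acid sensing in the lungs of elderly rats that had inhaled TiO2 nanoparticles. The members were taken as the spots annotated to Tmem173, Mavs, Tbk1, Ikbke, Irf3, Ifnb1 and Trex1 by the array annotation, that is 7 of the 25597 gene symbols on the array, with 9 probes on 19 spots. The set was chosen because Tmem173 rose on the day exposure ended, so that its values on that day are given as a description. All 7 members passed the filter on dim probes, which kept 23059 genes.

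The rats were male F344 animals, 19 months old when inhalation began, that breathed either filtered air or a TiO2 aerosol at 10 mg/m3 by the nose only. Sessions lasted 6 hours on 5 days of each week for 4 weeks. Lungs were taken when exposure ended (D0) or 28 days later (D28), and total RNA of the accessory lobe was measured with 1 rat per single-colour array. The arrays were from 6 control and 5 exposed rats at D0 and from 6 control and 6 exposed rats at D28. No genetic alteration was part of the design, and all animals were of 1 strain and 1 sex. Whole lobe RNA pools every cell type, so that more cells of a type and more RNA per cell cannot be told apart.

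As background, cGAS binds DNA in the cytosol and makes a cyclic dinucleotide that activates STING, whereas the RIG-I-like receptors bind RNA and act through MAVS on mitochondria. Both adaptors recruit the kinases TBK1 and IKKε (Ikbke), which phosphorylate the transcription factor IRF3, and IRF3 then drives Ifnb1. TREX1 is a nuclease that degrades cytosolic DNA and so limits the supply of ligand to cGAS. In the lung these genes are expressed by macrophages as well as by epithelial and endothelial cells, and STING is itself known to be raised by interferon.

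The 75th percentile of the processed signal ran from 1383 to 3470 over the 23 arrays, and between 69.5 and 77.9% of spots were well above background. Of the 8 lung markers (surfactant proteins, Ager, Aqp5, Scgb1a1 and Cldn18), all were well above background on all 23 arrays. Heart and skeletal muscle markers were detected too, with 1 of 6 (Myl7) under-expressed at D0 and the same gene at D28. The arrays came from 5 slides, and one of them carried a single array, of a D28 control, which was also the only array read with another version of the scanner software. Values below are log2 normalized signals, and FC is the fold change of exposed against control rats on the same day. A gene was called a DEG when its adjusted p was below 0.05 and its FC, up or down, reached 1.5. They were 417 of 23059 genes at D0, 254 over-expressed and 163 under-expressed, and 174 at D28, 112 over-expressed and 62 under-expressed.

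Tmem173 and Irf3 rest on more than 1 probe, and the probes below are shown because the Tmem173 result turns on a pair of them, because those of Irf3 differ in sign, and because the Ifnb1 reading turns on a single one. They are designed 60-base probes on the array and read 5′ to 3′, with positions of rn4 as the array files give them and no letter in capitals. The first Tmem173 probe, at chr18:28357194-28357253 on the minus strand, lies 2085 bases from the second in the genome, at chr18:28355109-28355168, of which the last 30 bases are printed. The Irf3 probes lie at chr1:95472592-95472742, where 60 bases of probe cover 151 bases of genome with a gap of 91, and at chr1:95474896-95474955, both on the plus strand. The Ifnb1 probe lies at chr5:107837658-107837717 on the minus strand. The array files give no exon or UTR for these positions.
Tmem173 A_44_P646486: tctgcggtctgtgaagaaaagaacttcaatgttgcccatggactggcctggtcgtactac
Tmem173 A_43_P17022: ctgtcttctcagtaaacatatttattctca
Irf3 A_43_P13682: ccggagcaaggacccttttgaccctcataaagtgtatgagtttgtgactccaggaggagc
Irf3 A_44_P1003825: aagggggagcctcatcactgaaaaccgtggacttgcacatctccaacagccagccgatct
Ifnb1 A_43_P15536: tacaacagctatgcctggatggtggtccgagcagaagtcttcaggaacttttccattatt

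The set was chosen on the D0 values of Tmem173, which are therefore given first and as a description. At D0 the 5 exposed rats had signals of 10.02, 9.92, 9.80, 9.66 and 9.59, and the 6 controls had a lowest, median and highest of 8.60, 8.85 and 8.98. Every exposed rat was above every control, a pattern that 1.94% of genes showed. The means were 9.80 ± 0.18 (SD, n = 5) and 8.83 ± 0.15 (SD, n = 6), a log2 FC of 0.96 with a standard error of 0.15. Tmem173 was the 1 member of 7 past the DEG thresholds there, where 1.81% of all genes were. As the rule used this contrast, no test is given for it and nothing is read from the count or from the separation of the groups.

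At D28, in other rats, Tmem173 was again over-expressed in the exposed group. The 6 exposed rats had a lowest, median and highest signal of 8.86, 9.20 and 9.84, against 8.18, 8.50 and 8.90 in the 6 controls. Of the exposed rats, 5 were above every control, and the sixth, at 8.86, was within the range of the controls. The means were 9.24 ± 0.33 (SD, n = 6) and 8.48 ± 0.28 (SD, n = 6), a 1.69-fold difference with a 95% interval from 1.37 to 2.08 (log2 FC 0.76, standard error 0.14, limma adjusted p = 0.00993 over all genes). The standard error, interval and adjusted p rest on a spread pooled over all 23 arrays. Those include the D0 groups on which the set was chosen, whose SD were smaller, at 0.15 in controls and 0.18 in exposed rats. The two-sided exact permutation test, which used only the D28 values of Tmem173, gave p = 0.00433, where 0.00216 is the smallest that 6 against 6 rats allow. Tmem173 was the only 1 of the 7 members called at D28, where 0.755% of all genes were. It was also the 1 member with an unadjusted p below 0.05, which 11% of all genes had. The call was lost with the brighter probe alone (log2 FC 0.67, adjusted p = 0.078) and with only the arrays of D28 (log2 FC 0.76, adjusted p = 0.129), while normexp correction and the deposited table kept the adjusted p (0.00362 and 0.00656) but brought the log2 FC to 0.54 and 0.58, below the FC limit.

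**Figure D1:**
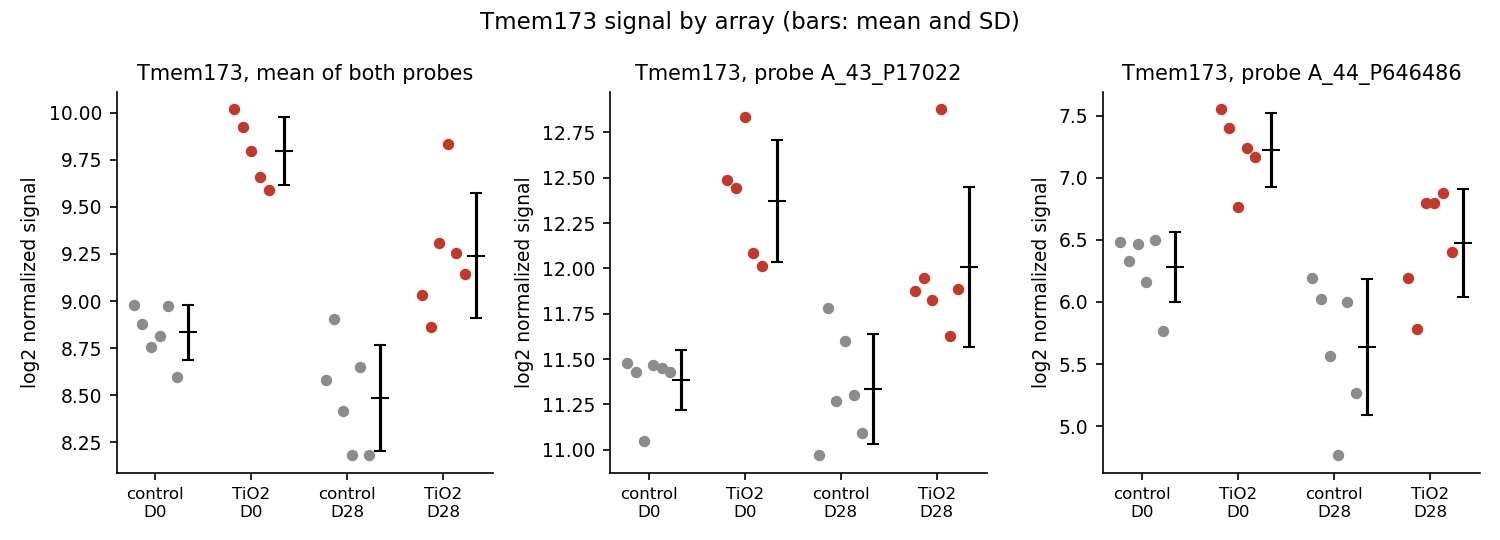
Log2 normalized signal of Tmem173 (y axis) in each rat of the 4 groups (x axis), as the mean of both probes and for each probe, with the mean and SD beside the points (n = 6, 5, 6 and 6). Exposed rats, in red, lie above the controls of the same day, with no overlap at D0 and with 1 exposed rat within the range of the controls at D28 in the mean of both probes.

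Both Tmem173 probes moved the same way. Probe A_43_P17022 had a log2 FC of 0.99 (standard error 0.20) at D0 and 0.67 (0.19) at D28, and probe A_44_P646486 had 0.94 (0.24) and 0.84 (0.23). Tested as probes among 40418, neither passed at D28 (limma adjusted p = 0.116 and 0.111, with 0.448% of probes called), while the two-sided exact permutation tests gave p = 0.00433 and 0.0195 for n = 6 against 6. With each probe, 5 of the 6 exposed rats of D28 were above every control of that day. Around their group means the probes did not follow each other (r = -0.09 over 23 arrays), so the difference between groups, and not the order of rats within a group, is what they share. Probe A_44_P646486 was the dimmer, with a processed signal from 41.0 to 224 and a median of 81.1, and both were well above background on all 23 arrays.

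The order of the Tmem173 group means was exposed D0, exposed D28, control D0 and control D28, at 9.80, 9.24, 8.83 and 8.48. Neighbours in this order overlapped in every case. The controls of D28 were lower than those of D0 by a log2 difference of -0.35 (standard error 0.14), and the exposed rats of D28 were lower than those of D0 by -0.56 (0.15). Since the D0 groups entered the choice of the set, these differences are a description, and no test of a change between days is given.

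At D28, Tmem173 was also higher in exposed rats within each slide that held both groups. Here and in the slide differences below, a slide gave only 1 or 2 arrays per group and day. The D28 difference on the log2 scale ran from 0.67 to 0.83 over 3 slides. At D0 it ran from 0.682 to 1.203 over 4 slides. As every exposed rat of D0 was above every control, the D0 sign was fixed beforehand and is only a description. With the slide as a block the D28 log2 FC was 0.72 (limma adjusted p = 0.00543). Without the control array that was alone on its slide, it was 0.69 (adjusted p = 0.0238).

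The summed macrophage signal was higher on average in exposed rats on both days. Of the 8 single markers, 7 had a log2 FC above 0 at D0 and 6 at D28, with Marco, described below, in both counts. The summed signal of the 8 markers on the log2 scale ran from 13.38 to 13.79 in controls and from 13.97 to 14.22 in exposed rats at D0, and from 13.28 to 13.66 and from 13.60 to 13.96 at D28, where the groups overlapped. The means differed by 0.55 at D0 and 0.37 at D28. Of the 8, 1 was over-expressed at D0 (Siglec1, a sialic acid receptor of macrophages, log2 FC 0.89, limma adjusted p = 0.00261) and 0 at D28 in limma. Cd68, a lysosomal protein of macrophages, passed the adjusted p on both days without reaching the FC limit (log2 FC 0.55 and 0.42, adjusted p = 0.00291 and 0.0291). The other markers did not pass. Fabp4 had log2 FC of 0.53 and 0.07 at D0 and D28, and Msr1 had 0.29 and 0.13. Csf1r, the receptor for the macrophage growth factor CSF1, had 0.01 and -0.16, Adgre1 had -0.25 and 0.19, and the mannose receptor Mrc1 had 0.26 and -0.07. The macrophage receptor Marco was well above background on only 2 of 23 arrays, so no FC is given for it. Within groups, the summed macrophage signal and Tmem173 had r = -0.29 over 23 arrays that share the same normalization. For the sums of the other marker lists, r with Tmem173 ran from -0.24 (NK cells) to 0.54 (lung markers). That of the endothelial sum was 0.36.

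The summed neutrophil signal was also higher on average in exposed rats, by 0.58 at D0 and 0.54 at D28 on the log2 scale, with overlap on both days. It ran from 14.09 to 15.65 in controls and from 13.61 to 15.63 in exposed rats at D0, and from 13.84 to 15.10 and from 14.48 to 15.90 at D28. Of the 7 measured neutrophil markers, 3 had a log2 FC above 0 at D0 and 2 at D28, with S100a9 at 0.63 and 0.61 (limma adjusted p = 0.612 and 0.591), and Ngp, well above background on 10 of 23 arrays, at -0.75 and -0.83 (0.371 and 0.301). The summed heart and skeletal muscle signal was lower by 0.48 at D0 and 0.46 at D28, with 1 array of D0 left out for a missing marker, and the summed NK cell signal was lower by 0.29 and 0.51. The endothelial sum was lower by 0.14 and 0.28, and Tek, an endothelial receptor, passed the adjusted p at D28 without reaching the FC limit (log2 FC -0.46, adjusted p = 0.0245).

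Of the T cell, B cell, NK cell, neutrophil, type II pneumocyte, endothelium and lung markers, 0 were called on either day in limma. The largest movers of these lists at D0, beside Ngp, were Cd8a (log2 FC -0.34), Ms4a1 (-0.35), Nkg7 (-0.32), Abca3 (0.33), Cdh5 (-0.29) and Aqp5 (-0.47), and that of the muscle list was Ckm (-0.74). Among the lung markers, Aqp5 and Sftpd (log2 FC 0.37) passed the adjusted p at D0 without reaching the FC limit (limma adjusted p = 0.0316 and 0.0468). Of the muscle markers, Tnni3 did so on both days (0.0498 and 0.0466) and Tnnt2 at D28 (0.0393). At D0, where 12% of all genes had an unadjusted p below 0.05, those that did were 4 of 8 macrophage markers (all higher), 2 of 5 type II pneumocyte markers (higher), 4 of 6 muscle markers, 1 of 7 neutrophil and 1 of 6 endothelial markers (all lower), and 3 of 8 lung markers (2 higher and 1 lower). At D28, where 11% of all genes did, they were 3 of 8 macrophage and 1 of 8 T cell markers (all higher), 4 of 6 muscle, 3 of 6 endothelial and 1 of 7 neutrophil markers (all lower), and 3 of 8 lung markers (2 higher and 1 lower). Both macrophage counts include Marco, which was well above background on only 2 arrays and for which no FC is given. Markers other than the largest mover of a list were named after their values were seen. The part of all these markers in the Tmem173 result was not tested.

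**Figure D2:**
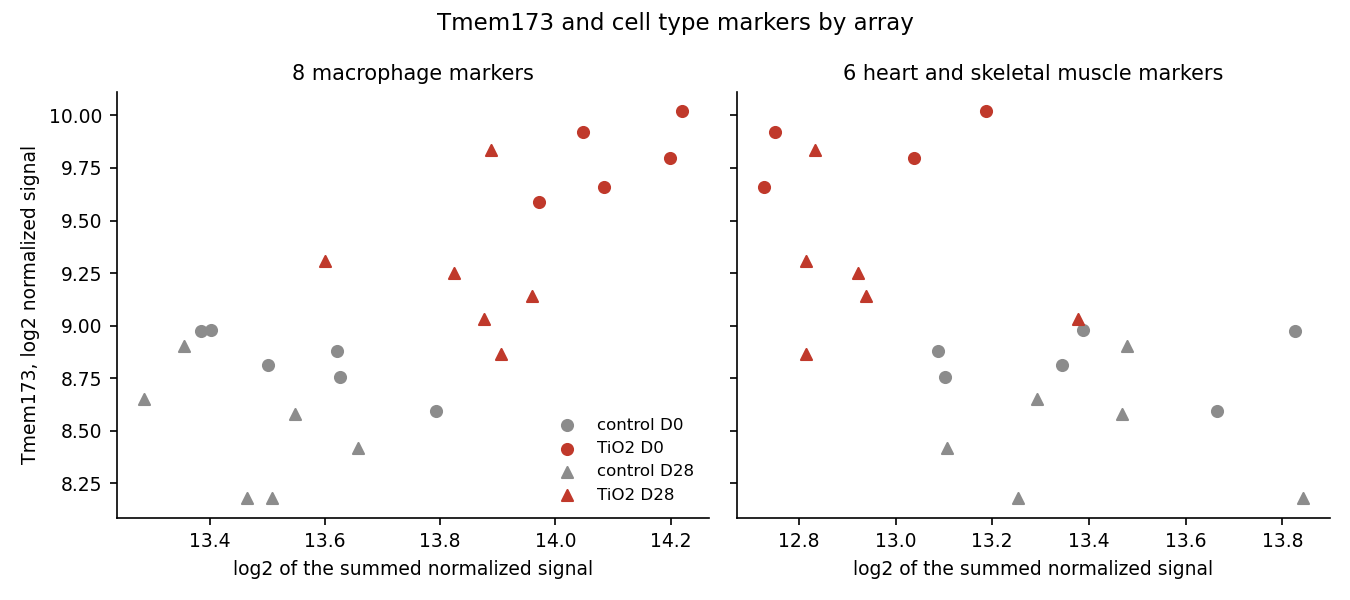
Tmem173 (y axis, log2 normalized signal) against the log2 of the summed signal of the 8 macrophage markers and of the 6 heart and skeletal muscle markers (x axes), 1 point per array, with circles for D0 and triangles for D28. Exposed rats, in red, have higher macrophage sums at D0 without overlap and mostly lower muscle sums. Around the group means, Tmem173 had r = -0.29 with the macrophage sum and -0.08 with the muscle sum, the latter over 22 arrays.

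Mavs, the adaptor of the RNA branch, did not differ between groups beyond the spread between rats. At D0 the exposed rats had 10.82, 10.75, 10.78, 10.76 and 10.53, against a lowest, median and highest of 10.60, 10.74 and 10.99 in controls. At D28 these were 10.57, 10.79 and 11.06 in exposed rats and 10.34, 10.70 and 10.80 in controls. The log2 FC at D28 was 0.14 (standard error 0.09, limma adjusted p = 0.667), with a 95% interval of the fold from 0.961 to 1.26. On the log2 scale its interval, from -0.06 to 0.34, ended below that of Tmem173, from 0.45 to 1.06, and a difference between the genes was not tested.

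Neither kinase passed the test at D28, and the direction of the small Tbk1 difference at D28 changed with the processing. Tbk1 at D28 had a lowest, median and highest of 5.67, 6.37 and 6.64 in exposed rats and 5.75, 6.30 and 6.49 in controls, so the groups covered the same range. Its log2 FC was -0.29 (standard error 0.20) at D0 and 0.01 (0.19) at D28 (limma adjusted p = 0.998, 95% interval of the fold from 0.767 to 1.31). Ikbke at D28 had 11.75, 11.97 and 12.23 in exposed rats and 11.36, 11.67 and 12.16 in controls, with 1 exposed rat above every control. Its log2 FC was 0.27 (0.16) at D0 and 0.27 (0.15) at D28 (limma adjusted p = 0.552), and the 95% interval of the D28 fold, from 0.972 to 1.503, reached a 1.5-fold rise. Within slides, exposed rats had the higher Ikbke on all 4 at D0 and all 3 at D28, whereas they had the lower Tbk1 on all 4 at D0 (differences from -0.46 to -0.07) and on 1 of 3 at D28.

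Irf3, which the kinases phosphorylate rather than induce, had group means from 10.91 to 11.05. At D28 its lowest, median and highest were 10.598, 10.997 and 11.397 in exposed rats and 10.593, 10.968 and 11.151 in controls. The log2 FC was 0.05 (standard error 0.13) at D0 and 0.08 (0.13) at D28 (limma adjusted p = 0.906, 95% interval of the fold from 0.881 to 1.27). Its probes had D28 log2 FC of 0.19 and -0.03, of opposite sign, and with the brightest probe alone the gene's D28 value was below 0. Arrays of this kind read transcript and not phosphorylation, so the activity of IRF3 was not measured.

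Trex1 varied more among controls than among exposed rats at D28. The exposed rats had a lowest, median and highest of 9.07, 9.27 and 9.50, inside the controls' 8.44, 8.92 and 9.79. The log2 FC was 0.12 (standard error 0.20) at D0 and 0.29 (0.19) at D28 (limma adjusted p = 0.655, 95% interval of the fold from 0.929 to 1.60). Of the 6 members tested between the controls of D28 and of D0, Trex1 was the 1 with an unadjusted p below 0.05 (log2 difference -0.43, limma unadjusted p = 0.0341), which did not survive adjustment (adjusted p = 0.331) and which 13.3% of all genes had. No member was called between the 2 control groups, where 0.616% of all genes were.

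Ifnb1, the interferon that this pathway induces, was well above background on 2 of 23 arrays, those of 1 control rat at D0 and 1 exposed rat at D28. Its processed signal had a median of 9.12, against 120.5 on the highest array, a control of D0 whose log2 normalized signal of 6.45 stood above the 1.67 to 3.58 of the other 5 controls. The exposed rats of D0 had 2.97, 2.85, 3.40, 3.49 and 3.14. No FC is given, since neither group of a day had a measured level. At this signal over background, a change of Ifnb1 was not detectable here. The paper, with its own processing, counts Ifnb1 among the genes under-expressed only in elderly exposed rats right after exposure.

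**Figure D3:**
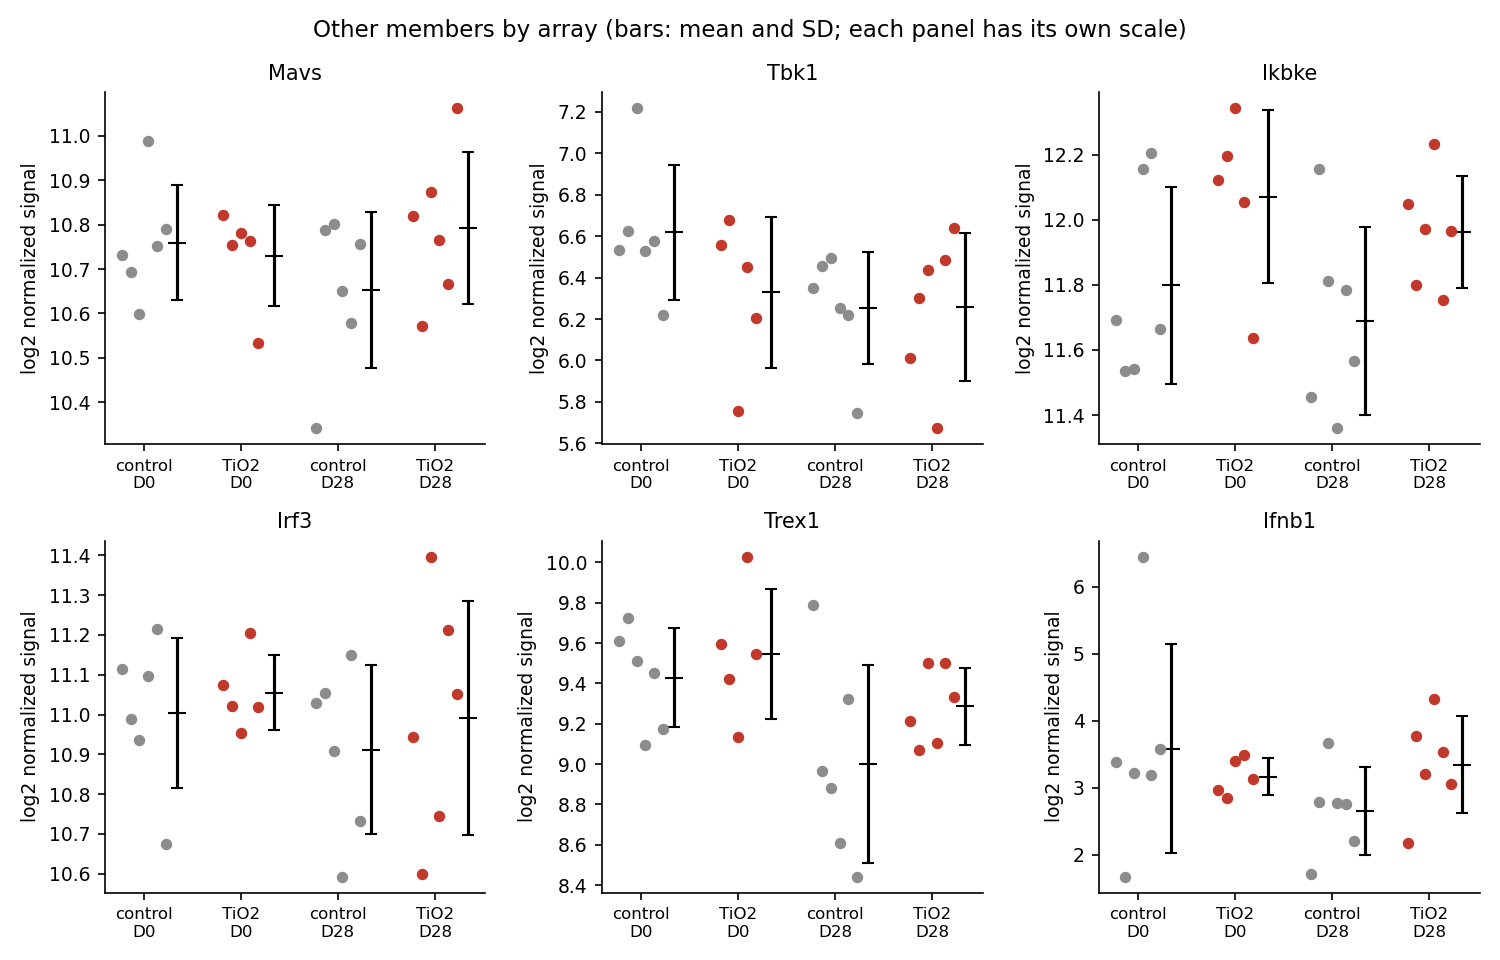
Log2 normalized signal of the other 6 members (y axes, each on its own scale) in each rat of the 4 groups (x axes), with the mean and SD beside the points. Exposed rats, in red, overlap the controls of the same day in every panel. Ifnb1 is near background apart from 2 arrays, 1 control of D0 and 1 exposed rat of D28, and its highest value, 6.45, is that of a control of D0.

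**Figure D4:**
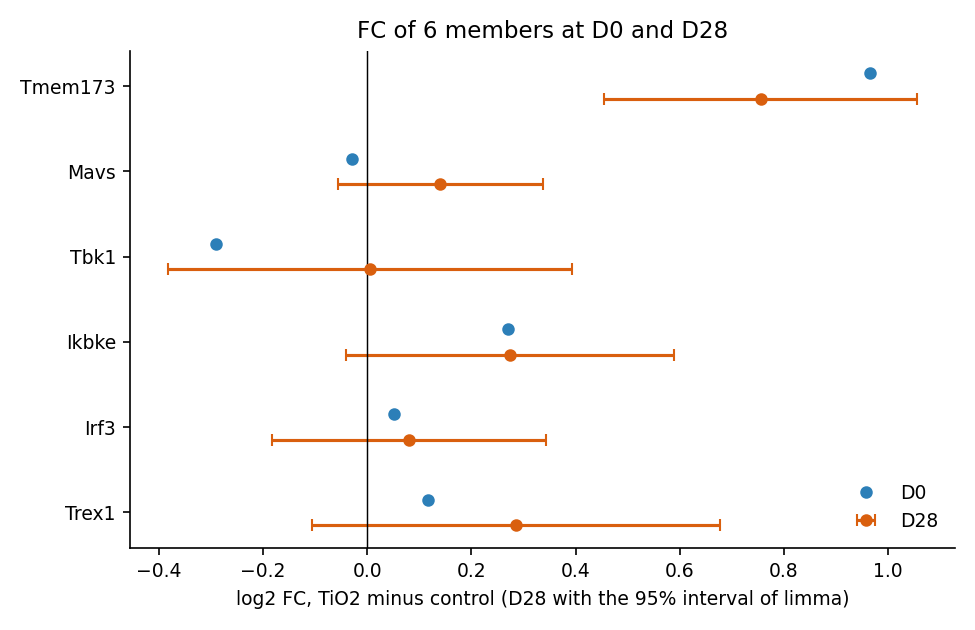
Log2 FC of exposed against control rats (x axis) for 6 members (y axis) at D0, in blue and without an interval because the set was chosen on that day, and at D28, in orange with 95% limma intervals. Ifnb1, which was near background, is not drawn. At D28 the Tmem173 interval runs from 0.45 to 1.06, and those of the other 5 members include 0.

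Around their group means, some pairs of members varied together and others did not. Over the 23 arrays, Tmem173 had r = 0.57 with Ikbke, 0.41 with Irf3, 0.28 with Trex1, 0.09 with Mavs and 0.02 with Tbk1. For comparison, 2.5% of all genes had an r with Tmem173 above 0.517, so that Ikbke was among them. Over the 15 pairs without Ifnb1, r ran from -0.44 between Mavs and Trex1 to 0.63 between Irf3 and Trex1, with 0.58 between Mavs and Ikbke. All these values share the arrays and their normalization. The 2 Tmem173 probes had r = -0.09 with each other by the same measure. Every r with Tmem173 within groups, here and for the marker sums, thus describes the mean of 2 readings that did not vary together. The 5 genes most like Tmem173 by this measure were Parp1 (r = 0.85), Lcn2 (0.84), Scd2 (0.82), Zbtb48 (0.81) and Zfp341 (0.80), each well above background on all 23 arrays. With the values as measured, group differences included, these were 0.74, 0.90, 0.06, 0.95 and 0.13. Among them Zbtb48 was higher in exposed rats on both days (log2 FC 0.72 and 0.50, limma adjusted p = 0.00105 and 0.0271). Lcn2, the iron-binding protein lipocalin-2, was higher at D0 (1.65, adjusted p = 0.00138). Its D28 log2 FC of 0.73 did not pass the test (adjusted p = 0.231), which does not show that it was unchanged.

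The wider pathway was read from 98 other genes in 6 lists, of which 95 were measured. At D0, 0 of the 95 were over-expressed and 1 was under-expressed (1.05%, against 1.81% of all genes). At D28, 1 was over-expressed and 0 under-expressed (1.05%, against 0.755%). The median log2 FC of the 95 was 0.06 at D0 and 0.08 at D28, where that of all genes was -0.000686 and -0.00515. By an unadjusted p below 0.05, 9 were higher and 1 lower at D0, and 8 were higher and 0 lower at D28. These were 10.5% and 8.42% of the 95, below the 12% and 11% of all genes. The higher ones at D0 were 1 sensor, 4 adaptors and transcription factors, 1 negative regulator, 1 clearance gene, 0 interferon and receptor genes and 2 interferon-stimulated outputs, and at D28 these counts were 0, 2, 1, 1, 0 and 4.

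Among the sensors, upstream of the adaptors, 0 of 11 passed the test on either day. Cgas, which makes the ligand of STING, had the largest difference, with 5.63, 5.47, 5.81, 5.80 and 5.17 in the exposed rats of D0 against a lowest, median and highest of 4.55, 4.81 and 5.33 in controls, so that 4 of 5 were above every control. Its log2 FC was 0.72 (standard error 0.22, limma adjusted p = 0.0998), and it passed with 75th percentile scaling (adjusted p = 0.0401) and with only the arrays of D0 (0.034). At D28 it was 0.24 (0.21, adjusted p = 0.779). Zbp1, a sensor of Z-form nucleic acids, had 0.43 at D0 (adjusted p = 0.49) and 0.37 at D28 (0.575). Of the adaptors and transcription factors, 0 of 20 measured passed, with Irf5 at 0.29 at D0 (adjusted p = 0.22) and Trim25, a ubiquitin ligase of the RIG-I branch, at 0.27 (0.339). Of the negative regulators, 0 of 11 passed, with Nlrx1 at 0.15 (0.306) and Itch at -0.13 (0.912).

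Of the 14 genes that clear nucleic acids, 1 was under-expressed at D0. Dnase2b, a lysosomal DNase related to Dnase2, had signals of 3.93, 4.81, 4.86, 3.98 and 3.15 in the exposed rats of D0, all below the 5.40, 5.96 and 6.74 (lowest, median and highest) of the controls. The log2 FC was -1.85 (standard error 0.31, limma adjusted p = 0.00131), with 2 of 5 exposed and 6 of 6 control arrays well above background. The size depended on the background correction, at -0.63 with normexp and -0.96 in the deposited table, and the call held with each. Within the 4 slides at D0 the difference ran from -2.81 to -0.54, with a sign fixed by the separation of the groups. At D28 the log2 FC was 0.08 (0.29, adjusted p = 0.967), and the difference between the effects of the 2 days, 1.93 (0.42), did not pass (adjusted p = 0.194). Pld3, a lysosomal exonuclease, had 0.28 (adjusted p = 0.659) and Dnase2, which degrades DNA of engulfed cells, 0.22 (0.251) at D0.

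Of the 14 measured interferons, receptors and receptor signalling genes, 0 passed on either day, with Ifnk at 0.40 at D0 (limma adjusted p = 0.674) and Stat2, a part of the complex that carries the interferon signal to the nucleus, at 0.27 (0.449). Of the 25 interferon-stimulated outputs, 0 passed at D0 and 1 at D28. That gene was Usp18, which removes ISG15 from proteins and restrains the interferon receptor. The exposed rats of D28 had a lowest, median and highest of 8.81, 8.99 and 9.40, all above the 8.11, 8.48 and 8.70 of the controls. The log2 FC was 0.61 (standard error 0.15, limma adjusted p = 0.044), and 0.38 (0.16, adjusted p = 0.278) at D0. The call is fragile: it was lost under 5 of 9 alternative settings, 75th percentile scaling among them (adjusted p = 0.0583), and in 9 of 12 fits that left out 1 array of D28, all but those without control rats 1 or 5 or exposed rat 2. Over these settings and fits the log2 FC ran from 0.54 to 0.66. Within 3 slides the D28 difference ran from 0.32 to 0.86, with a sign fixed by the separation of the groups.

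The other outputs with the largest differences at D0 were Cxcl10, a chemokine for T cells, at 1.01 (standard error 0.44, limma adjusted p = 0.323), and Xaf1 at 0.41 (0.25, adjusted p = 0.628). Cxcl10 in the exposed rats of D0 was spread from 8.40 to 11.43, against 7.98 to 9.56 in controls. At D28 its log2 FC was 0.92 (0.42, limma unadjusted p = 0.0389, adjusted p = 0.404). The D28 log2 FC of the 25 outputs ran from -0.61 to this value. The values of other much used outputs differed among themselves. Isg15, Ifit3 and Rsad2 had log2 FC of -0.02, 0.01 and 0.13 at D0 and 0.14, 0.21 and -0.02 at D28, with a lowest adjusted p of 0.826 among them. The antiviral GTPases Mx1 and Mx2 had 0.41 and 0.21 at D0 (adjusted p = 0.456 and 0.693) and 0.49 and 0.31 at D28 (0.301 and 0.389). Irf7, a transcription factor of the list of adaptors, had 0.22 at D0 (0.847) and 0.49 at D28 (0.297). At D28 the unadjusted p of Mx1, Mx2 and Irf7 were 0.0197, 0.0352 and 0.0192. These 6 genes were named after their values were seen, and none of them passed the test.

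**Figure D5:**
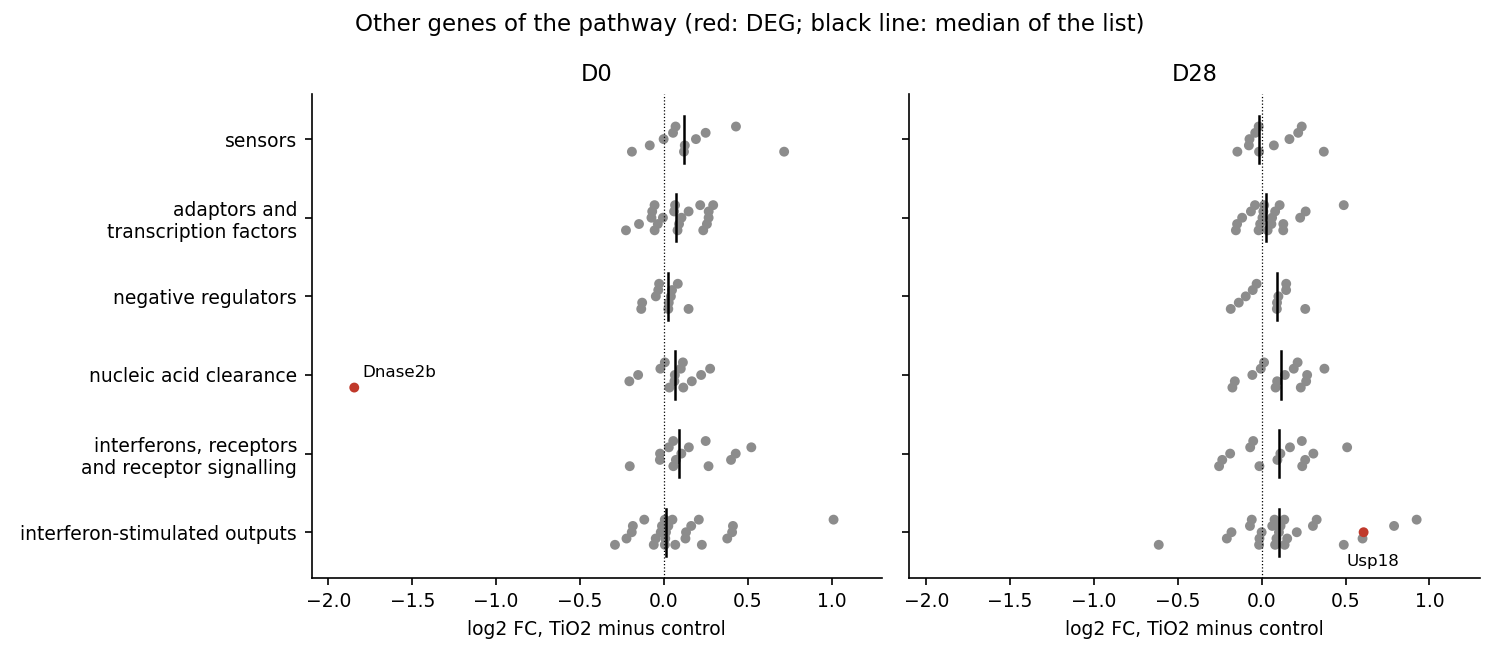
Log2 FC of exposed against control rats (x axis) for the 95 measured genes of the pathway in 6 lists (y axis), at D0 and D28, with DEGs in red and the median of a list as a black line. Dnase2b at D0 (-1.85) and Usp18 at D28 (0.61) are the DEGs, and the list medians lie between -0.02 and 0.12.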

How the data were processed

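The authors deposited the scanner output of each array and a table of all 23 arrays. Both hold intensities on a linear scale: the processed signal of the scanner output has the background of each array removed but no normalization across arrays, and the deposited table is quantile normalized. Per the labels, Agilent Feature Extraction 11.0.1.1 was used. Per the file headers, 1 array was read with version 12.0.1.1. Groups follow the titles of the samples, since for the exposed D28 rats the source label reads day 0. Gene names were those of the array read with the later version, and RefSeq lists Tmem173 as a synonym of Sting1.

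Control spots were left out and spots marked as outliers set missing. A probe was kept (40418 of 45598) if on 5 or more arrays it exceeded the 95th percentile of that array's 308 negative controls. Log2 signals were quantile normalized, spots averaged to probes and probes to genes. One limma model (limma 3.58.1, R 4.3.3) with a mean for each group used all 23 arrays (19 residual degrees of freedom) and no batch, because those of the study's own correction are not named. P-values were adjusted by Benjamini-Hochberg over all genes, and the limma steps were tested on simulated data. Permutation tests used scipy 1.17.1. Precision is limited by how many arrays there are. The p-values set a group difference against the spread between arrays of a group, in which rat, array and slide differences are not separated.

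The members and the lists of pathway genes and markers were chosen with earlier results of these data known. Named were all members, pathway DEGs, the pair of genes in each list with the largest change at D0 among those well above background on all arrays, the 5 genes most like Tmem173 and the largest mover of each marker list. Alternatives were 75th percentile scaling, normexp with an offset of 50, the deposited table, 2 other filters, the brightest probe of a gene, the arrays of a day, the slide or the replicate number as a block, no FC limit, and leaving out each array. The design text counts 6 exposed rats at D0, of which 5 were analysed here.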

Additional observations from a re-analysis of the deposited data

Results flagged for a closer look

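In 36 groups of 5 or 6 arrays (the 7 members, Dnase2b and Usp18 in each of the 4 groups), 3 arrays lay farther from the rest than Dixon's 95% critical value, where chance gives about 5% of groups. Mavs in exposed rat 5 of D0 had a log2 signal of 10.53, against 10.75 to 10.82 in the other 4. Tbk1 in control rat 6 of D28 had 5.75, against 6.22 to 6.49 in the others, and Dnase2b in the same rat had 5.44, against 6.08 to 6.21.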

How the results depend on the processing

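The number of DEGs was 417 at D0 and 174 at D28. It moved to 222 and 94 with normexp correction and to 670 and 304 without a FC limit, and with only the arrays of D28 it was 42. Leaving out 1 array gave 318 to 442 at D0 and 111 to 203 at D28, with 111 without exposed rat 1 of D28. Members called at D28 went from 1 to 0 with normexp correction (log2 FC of Tmem173 0.54), the deposited table (0.58), the brightest probe (0.67) and only the arrays of D28 (0.76), and stayed at 1 under the other 6 settings and without any 1 array (log2 FC 0.64 to 0.84). With normexp the D0 log2 FC of Tmem173 was 0.76 instead of 0.96. Members called at D0 stayed at 1 and those between controls at 0 throughout. Pathway genes called at D0 went from 1 to 2 with 75th percentile scaling and with only the arrays of D0, where Cgas was added. Those at D28 went from 1 to 0 under 75th percentile scaling, normexp, the deposited table, only the arrays of D28 and the replicate block, and lay between 0 and 1 when arrays were left out. Among the members not called at D28, the sign of a small log2 FC changed for 2. That of Tbk1, 0.00576, was -0.0151 with 75th percentile scaling and -0.0133 with the slide as a block, and ran from -0.0959 to 0.123 when 1 array was left out, below 0 in 6 of 12 fits. That of Irf3, 0.08, was -0.0267 with the brightest probe and ran from -0.00102 to 0.158 when 1 array was left out, below 0 in 1 of 12 fits. None of these values passed the test. The cause of these moves was not tested, apart from the FC limit that Tmem173 missed with normexp and the deposited table.

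With the replicate number as a block (replicate block), 358 genes were called at D0 and 138 at D28, 1 member at each day, 0 between controls, 1 pathway gene at D0 and 0 at D28, and Tmem173 at D28 kept a log2 FC of 0.76 (limma adjusted p = 0.0282). Rats that share a number did not deviate together in every pair (r from -0.23 to -0.12 over 5 pairs at D0 and from -0.17 to 0.46 over 6 pairs at D28). Rats with unlike numbers were not compared, so these values cannot tell whether the numbers mark pairs. The main model did not use the numbers as pairs.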
